A study of Mus musculus with 26 samples.

Results

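The 8 genes Krt7, Krt19, Krt8, Krt18, Epcam, Sox9, Cftr and Cd24a mark bile duct cells and the ductular reaction. They were taken by symbol from a liver count table of 55401 genes, and all 8 were found and passed the filter on low counts. The series holds 26 liver samples of male C57BL/6 mice, labelled MASLD, in 3 groups. All groups ate a high-fat diet that began at 4 weeks of age and lasted 18 weeks, and the series design adds that it was high in cholesterol. The UCMSC-Exos group (8 libraries) received exosomes, small vesicles that cells release, made by UCMSCs, through the tail vein every 72 hours for 8 weeks. The untreated HFD group (9 libraries) had the diet, and no injection is listed for it. The effect of the exosomes and that of the injections cannot be told apart. The 9 LSCR samples were not analysed here. The labels give no cage, litter or batch.

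Cholangiocytes are the epithelial cells that line the bile ducts. They modify bile by secreting chloride, bicarbonate and water, and they sit in the portal tracts beside fibroblasts and vessels. In injured liver, including fatty liver disease, strings of duct-like cells with mixed biliary and hepatocyte features spread from the portal tracts; this is called the ductular reaction. Keratins are the intermediate filaments of epithelium and assemble as pairs of 1 type I and 1 type II chain. Krt8 (type II) and Krt18 (type I) are made by hepatocytes and bile duct cells alike, and Krt7 (type II) and Krt19 (type I) in healthy liver mainly by bile duct cells.

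In livers of the UCMSC-Exos group, Krt8 and Krt18 fell modestly and the other 6 genes did not pass the test over all libraries. In 7 of the 8 treated libraries, however, Epcam, Cftr, Cd24a, Krt7 and Krt19 were low, and in the remaining one, UCMSC-Exos 9, they were as high as in the highest untreated livers. Without UCMSC-Exos 9, 7 of the 8 genes passed as lower, with log2 fold changes from −0.48 for Krt8 to −2.48 for Cftr, and Sox9 did not pass. In that comparison 35.7% of all genes tested were called, 20.6% lower and 15% higher, against 20.2% called over all libraries. UCMSC-Exos 9 was the highest treated library for the 6 genes other than Krt8 and Krt18, so leaving it out lowers their treated levels by construction. The p-values of that fit do not allow for this choice, and untreated HFD 1, 6 and 7, high in the same 6 genes, stayed in. Leaving out UCMSC-Exos 1, 2, 3 or 5 instead, or adding surrogate variables to the model, left none of the 8 called by edgeR, with 2 at an unadjusted p under 0.05 in each of those 4 fits and 1 with surrogate variables; DESeq2 called 2 over all libraries. Levels are given in CPM, read counts scaled to a common effective library size, and tests are edgeR's quasi-likelihood test with Benjamini-Hochberg adjustment over all genes tested, at a threshold of 0.05. In bulk liver, fewer cells of a type and less RNA per cell cannot be told apart.

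**Figure D1:**
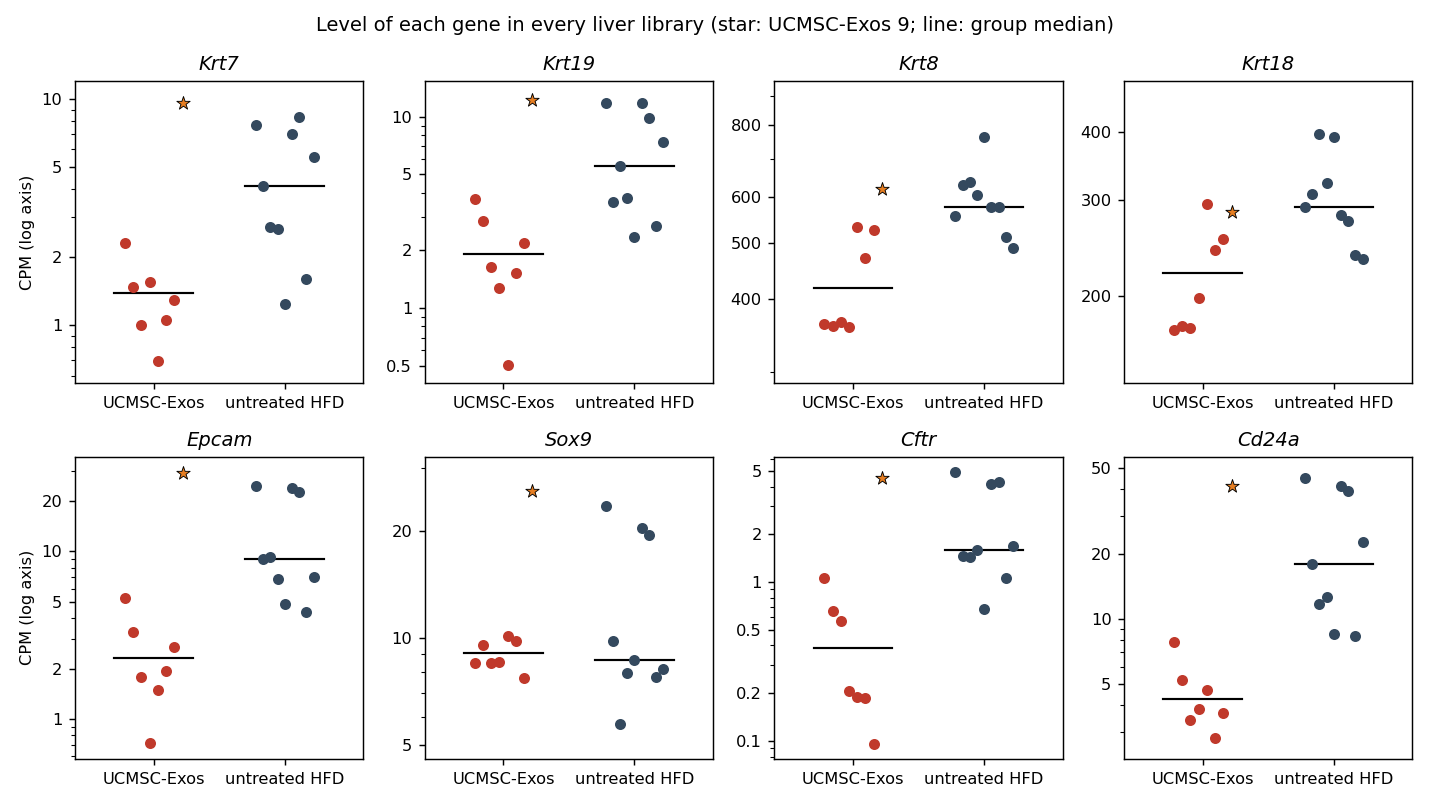
CPM of each of the 8 genes in every library on a log axis, UCMSC-Exos at left and untreated HFD at right, with a line at each group's median and a star for UCMSC-Exos 9. For Epcam the star is at 29.3 CPM, above the other treated libraries, which reach 5.27 CPM at most, and above the untreated maximum of 24.6 CPM.

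Libraries held between 32941467 and 36065074 counted reads. Untreated HFD 3 and 9 carried transcripts of other organs. The summed level of 16 pancreas acinar genes was 15100 CPM in untreated HFD 3 and at most 19 CPM in treated libraries, and that of 9 skeletal muscle genes was 12400 CPM in untreated HFD 9 and at most 2.93 CPM in treated libraries. UCMSC-Exos 9 lay at the level of the highest untreated livers in the 6 genes other than Krt8 and Krt18. Hnf4a, a hepatocyte transcription factor, was at 502 CPM there, against a median of 844 CPM over all UCMSC-Exos livers and of 521 CPM in untreated HFD livers. The library lay with the other treated livers for Jchain, the immunoglobulin joining chain, at 10.3 CPM, against 0.56 to 2.45 CPM in untreated livers. Counts without these libraries are given beside some of the results that they change.

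Per kilobase of exon, the 8 genes fell into a high pair and a low set of 6. In untreated HFD livers the median level was 295 CPM per kilobase for Krt8 and 202 for Krt18. The median levels of the others were 6.97 CPM per kilobase for Cd24a, 4.11 for Epcam, 2.99 for Krt19, 2.09 for Sox9, 0.587 for Krt7 and 0.205 for Cftr. The ranges over untreated libraries did not overlap between Krt18 and Cd24a or between Sox9 and Krt7, and every other pair of neighbours in this order overlapped. In UCMSC-Exos livers the medians were 214 CPM per kilobase for Krt8, 153 for Krt18, 2.19 for Sox9, 1.65 for Cd24a, 1.06 for Epcam, 1.03 for Krt19, 0.196 for Krt7 and 0.0499 for Cftr. The exon model that these levels divide by is 7049 bases long for Krt7 and 1855 bases long for Krt19.

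Promoter sequences are shown for the 2 genes that fell over all libraries, Krt8 and Krt18, and for Epcam and Cftr, which are low in the same 7 treated libraries. RefSeq promoters on GRCm38.p6 were found for 5 of the 8 genes and span 250 bases before the gene start to 50 after it. The promoter of Krt7, which is low in the same treated libraries too, is not printed. Those printed are chr15:102004293-102004592 on the minus strand (Krt8), chr15:102027966-102028265 on the plus strand (Krt18), chr17:87635729-87636028 on the plus strand (Epcam) and chr6:18170437-18170736 on the plus strand (Cftr). Capitals mark exact matches on either strand to 5 motifs. They were GGAATG for TEAD factors, TGGGAA for the Notch effector RBPJ, ACAAAG for SOX factors, GGGCGG for the GC box, and TATAAA for the TATA box.
Krt8: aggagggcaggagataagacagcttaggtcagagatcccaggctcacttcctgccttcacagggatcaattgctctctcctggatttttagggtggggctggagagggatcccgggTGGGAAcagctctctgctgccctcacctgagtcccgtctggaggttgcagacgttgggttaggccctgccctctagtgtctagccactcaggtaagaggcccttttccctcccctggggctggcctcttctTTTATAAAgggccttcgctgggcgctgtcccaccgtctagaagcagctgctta
Krt18: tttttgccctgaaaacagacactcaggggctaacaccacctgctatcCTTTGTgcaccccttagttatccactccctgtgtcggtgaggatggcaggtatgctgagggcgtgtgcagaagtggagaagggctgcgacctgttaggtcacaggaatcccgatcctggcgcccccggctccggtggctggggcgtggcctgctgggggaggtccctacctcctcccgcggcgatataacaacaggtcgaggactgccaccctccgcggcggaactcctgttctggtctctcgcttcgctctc
Epcam: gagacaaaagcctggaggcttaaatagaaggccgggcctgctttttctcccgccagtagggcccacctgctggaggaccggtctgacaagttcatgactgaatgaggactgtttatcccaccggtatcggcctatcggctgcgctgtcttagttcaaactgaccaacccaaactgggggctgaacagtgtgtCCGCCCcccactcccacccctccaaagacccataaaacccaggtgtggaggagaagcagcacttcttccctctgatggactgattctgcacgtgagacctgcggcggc
Cftr: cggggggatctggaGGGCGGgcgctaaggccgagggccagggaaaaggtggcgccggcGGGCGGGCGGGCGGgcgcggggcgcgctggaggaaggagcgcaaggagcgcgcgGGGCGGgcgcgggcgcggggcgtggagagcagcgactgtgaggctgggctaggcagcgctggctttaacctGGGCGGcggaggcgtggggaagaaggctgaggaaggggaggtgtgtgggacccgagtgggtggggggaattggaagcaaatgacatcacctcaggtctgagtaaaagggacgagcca
Krt8 has 1 RBPJ match and TATA box letters on both strands that overlap each other. Those TATA letters begin at −3 and −1 from the gene start used here and so run across it. Krt18 has 1 SOX match, Epcam has 1 GC box, and Cftr has 6 GC boxes of which 3 overlap. Of all 32851 promoters in the table, 25.6% hold the RBPJ letters, 18.7% the SOX letters, 35.7% a GC box, 13.6% the TATA letters and 14.7% the TEAD letters. GC content was 71.3% for Cftr, 61.3% for Krt18, 58% for Krt8 and 57% for Epcam, against a median of 52.7% over all promoters. These matches describe the printed windows and nothing about binding in these livers.

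Krt8 and Krt18, the filament pair shared by hepatocytes and bile ducts, are the 2 of the 8 genes called over all libraries, both lower. Of all 16238 genes tested, 20.2% were called, 10.4% lower and 9.73% higher. All 8 genes overlapped between the groups over all libraries, where 0.807% of genes were lower without overlap. Krt8 (chromosome 15, 101996698 to 102004482 on mm10) had a lowest, median and highest level of 358, 419 and 621 CPM in UCMSC-Exos livers, against 491, 578 and 763 CPM in untreated HFD livers. UCMSC-Exos 1, 2, 3 and 5 lay together between 358 and 366 CPM, and UCMSC-Exos 6, 8 and 9 lay inside the untreated range. The log2 fold change was −0.40 ± 0.12 (SE), with an edgeR adjusted p of 0.0306, and 7 of the 8 UCMSC-Exos libraries lay below the untreated median. Krt18 (chromosome 15, 102028180 to 102032027) had 173, 220 and 295 CPM in UCMSC-Exos livers, against 234, 291 and 397 CPM in untreated HFD livers. Its log2 fold change was −0.44 ± 0.14 (edgeR adjusted p = 0.0327), and again libraries 1, 2, 3 and 5 of the treated group were lowest while the rest overlapped the untreated ones. Both calls were lost without any one of UCMSC-Exos 1, 2, 3 and 5, at edgeR adjusted p between 0.0654 and 0.0729. The Krt8 call was also lost without untreated HFD 2, and the Krt18 call without untreated HFD 4 or 5. With surrogate variables neither passed, at −0.27 for Krt8 (edgeR adjusted p = 0.349) and −0.31 for Krt18 (0.328).

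The ratio of Krt8 to Krt18 level per kilobase was 1.47 ± 0.0997 in UCMSC-Exos livers (SD, n = 8) and 1.45 ± 0.121 in untreated HFD livers (SD, n = 9), a difference smaller than either SD. The ratio of both type II keratins to both type I keratins was 1.46 ± 0.0902 in UCMSC-Exos livers and 1.43 ± 0.118 in untreated HFD livers. The biliary keratins were a small part of either type. Krt7 stood at a median of 0.095% of the Krt8 level per kilobase in UCMSC-Exos livers and 0.182% in untreated HFD livers, and Krt19 at 0.695% of the Krt18 level in UCMSC-Exos livers and 1.08% in untreated HFD livers. The Krt19 share ran from 0.133% to 3.34% in UCMSC-Exos livers and from 0.468% to 3.23% in untreated HFD livers, and the upper end of the treated range is UCMSC-Exos 9. A pseudogene copy, Krt8-ps, averaged 0.571 CPM; reads that map to several places were not counted, so the shares of such copies are uncertain.

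Krt7 (chromosome 15, 101411043 to 101430313) had a lowest, median and highest level of 0.694, 1.38 and 9.62 CPM in UCMSC-Exos livers, against 1.24, 4.14 and 8.34 CPM in untreated HFD livers. Krt19 (chromosome 11, 100140810 to 100148665), whose product is the usual stain for bile ducts, had 0.505, 1.91 and 12.3 CPM in UCMSC-Exos livers, against 2.36, 5.54 and 11.8 CPM in untreated HFD livers. For both keratins the highest library of all 17 was UCMSC-Exos 9, and the other 7 treated libraries all lay below the untreated median. Over all libraries neither passed, at log2 fold changes of −0.93 ± 0.52 (edgeR adjusted p = 0.211) for Krt7 and −1 ± 0.52 (0.181) for Krt19. Without UCMSC-Exos 9 they passed, at −1.76 ± 0.39 (edgeR adjusted p = 0.00193) and −1.74 ± 0.42 (0.00405).

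Of 54 keratin genes in the table, 27 on chromosome 15 and 27 on chromosome 11, 7 were expressed enough to test. Besides the 4 described, these were Krt80, Krt23 and Krt10. Krt80, a keratin of late epithelial differentiation, had a log2 fold change of −0.97 ± 0.33 (edgeR adjusted p = 0.0438), with 0.95 ± 0.58 CPM in UCMSC-Exos livers (SD, n = 8) and 1.87 ± 0.774 CPM in untreated HFD livers (SD, n = 9). It was at 0.94 CPM in UCMSC-Exos 9, close to its treated mean. The call was lost in 12 of the 17 fits that left out 1 library, with surrogate variables and without untreated HFD 3 and 9. Krt23 and Krt10 did not pass over all libraries, at −0.72 and −0.01. Without UCMSC-Exos 9, Krt23 passed as lower, at −1.76 ± 0.44 (edgeR adjusted p = 0.00464), and Krt10 did not pass.

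Epcam (chromosome 17, 87635979 to 87651129) encodes a cell adhesion protein of epithelium that adult hepatocytes largely lack. It had 0.723, 2.32 and 29.3 CPM as lowest, median and highest in UCMSC-Exos livers, against 4.34, 9.02 and 24.6 CPM in untreated HFD livers. Of the 7 treated libraries other than UCMSC-Exos 9, 6 lay below every untreated library, and UCMSC-Exos 1 at 5.27 CPM lay inside the untreated range. The log2 fold change was −1.09 ± 0.67 over all libraries (edgeR adjusted p = 0.252) and −2.34 ± 0.48 without UCMSC-Exos 9 (edgeR adjusted p = 0.00139).

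Cd24a (chromosome 10, 43578284 to 43584265) encodes a small membrane-anchored glycoprotein of immature and biliary epithelium that B cells, neutrophils and erythroid cells also carry. Its levels were 2.80, 4.26 and 41.5 CPM in UCMSC-Exos livers, against 8.33, 18.0 and 45.2 CPM in untreated HFD livers. It had a log2 fold change of −1.33 ± 0.59 (edgeR adjusted p = 0.116), and of −2.36 ± 0.42 without UCMSC-Exos 9 (edgeR adjusted p = 4.6e-04). Without that library Cd24a was the 1 gene of the 8 whose groups did not overlap, at 2.80 to 7.84 CPM in UCMSC-Exos livers and from 8.33 CPM up in untreated HFD livers; 4.38% of all genes tested were lower without overlap in the same way. In the fit over all libraries 9.73% of all genes tested were higher. Of the markers of blood cells that carry Cd24a, 2 of 9 tested B and plasma cell genes, 4 of 6 erythroid genes and 1 of 6 neutrophil genes rose and none fell. Leaving out 1 library gave 2 to 3, 2 to 6 and 0 to 3 of them higher, in that order. Their part in the Cd24a level was not tested. Summed levels had medians of 78.5 CPM in UCMSC-Exos livers and 24.9 CPM in untreated HFD livers for 10 B and plasma cell genes. The medians were 248 CPM in UCMSC-Exos livers and 107 CPM in untreated HFD livers for 10 erythroid genes, and 16.1 and 8.01 CPM for 10 neutrophil genes in UCMSC-Exos and untreated HFD livers.

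Cftr (chromosome 6, 18170687 to 18322768), the chloride channel of the bile duct's apical membrane, was the scarcest of the 8. It had 0.0966, 0.387 and 4.54 CPM in UCMSC-Exos livers, against 0.678, 1.59 and 4.93 CPM in untreated HFD livers. The lowest value rests on 3 reads in UCMSC-Exos 8, so the order among the lowest libraries is within counting error. Treated libraries other than UCMSC-Exos 9 reached 1.06 CPM at most, and 6 of those 7 lay below every untreated library. The log2 fold change was −1.31 ± 0.65 (edgeR adjusted p = 0.159), and −2.48 ± 0.52 without UCMSC-Exos 9 (edgeR adjusted p = 0.00131).

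Sox9 (chromosome 11, 112782224 to 112787760), a transcription factor of bile duct formation that also marks periportal hepatocytes with biliary features, passed neither with nor without UCMSC-Exos 9. Its levels were 7.73, 9.06 and 25.8 CPM in UCMSC-Exos livers, against 5.71, 8.64 and 23.4 CPM in untreated HFD livers. The treated libraries other than UCMSC-Exos 9 lay between 7.73 and 10.1 CPM, inside the untreated range, and 4 of 8 lay below the untreated median. The log2 fold change was −0.16 ± 0.32 (edgeR adjusted p = 0.755), and −0.46 ± 0.27 without UCMSC-Exos 9 (edgeR adjusted p = 0.195). None of the 7 treated libraries lay below the untreated minimum, which is untreated HFD 3, the library with pancreas transcripts. Without untreated HFD 3 and 9 and UCMSC-Exos 9 the log2 fold change of Sox9 was −0.64 ± 0.26 (edgeR adjusted p = 0.0605). Whether Sox9 differed from the other genes in its response was not tested.

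**Figure D2:**
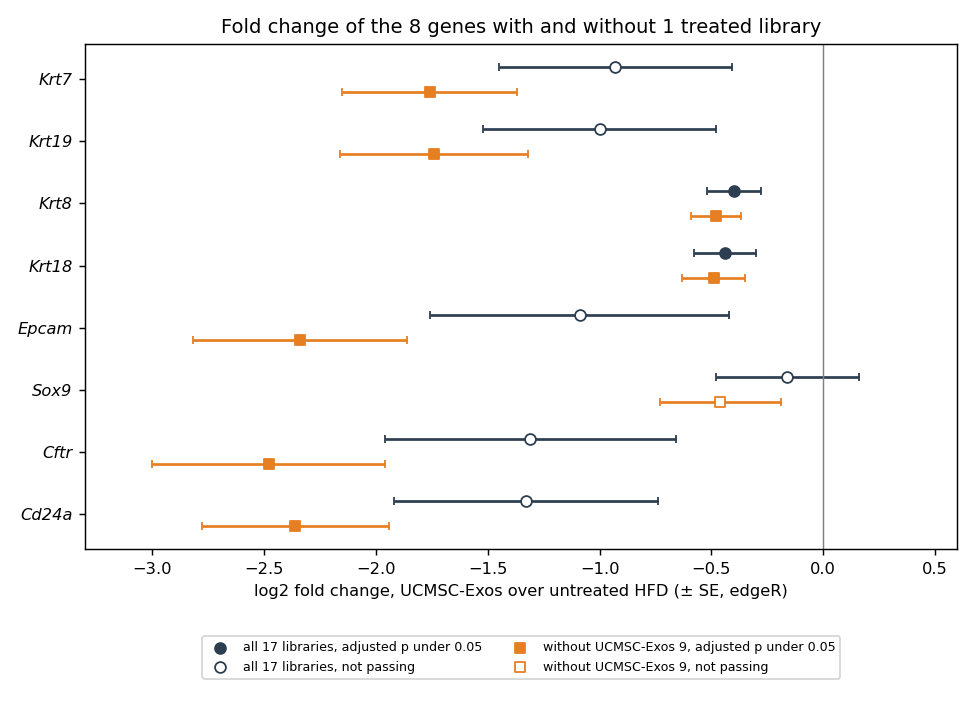
Log2 fold change of UCMSC-Exos over untreated HFD for each gene with its standard error, over all 17 libraries (circles) and without UCMSC-Exos 9 (squares), filled where the adjusted p was under 0.05. Krt8 and Krt18 are filled in both fits at −0.40 and −0.44 over all libraries, Sox9 in neither, and the other 5 only without UCMSC-Exos 9.

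As a set, 2 of the 8 genes were lower and none higher over all libraries, where 10.4% of all genes tested were lower. Their median log2 fold change was −0.96, against −0.02 over all genes tested. Without UCMSC-Exos 9, 7 of the 8 were lower and none higher, with a median of −1.75, where 20.6% of all genes were lower. That library was the highest treated one in the genes other than Krt8 and Krt18, so this fit is no separate evidence for them. By limma voom with quality weights, which gave UCMSC-Exos 9 a weight of 0.217, the same 7 genes passed as lower, where 25.5% of all genes did. With 3 surrogate variables in the edgeR model none passed, where 3.11% of all genes were called lower; 1 of the 8 had an unadjusted p under 0.05, and the median was −0.13. The first surrogate variable was 0.405 in UCMSC-Exos 9 and between −0.372 and −0.114 in the other treated libraries, and between −0.1 and 0.341 in untreated ones. Apart from UCMSC-Exos 9 the groups thus did not overlap in it, and adjusting for it can remove part of the group difference itself. Calls lost with surrogate variables, here and for the lists below, therefore cannot show that a difference is absent.

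The 6 genes other than Krt8 and Krt18 were highest in the same 4 libraries of the 17: UCMSC-Exos 9 and untreated HFD 1, 6 and 7. That set of 4 libraries was the highest for 3.39% of all genes tested and for 18 of 28 other bile duct genes. Epcam was at 29.3 CPM in UCMSC-Exos 9 and at 24.6, 23.7 and 22.6 CPM in untreated HFD 1, 6 and 7, while the remaining untreated livers were at 4.34 to 9.31 CPM. Sox9 showed the same gap, at 25.8 CPM in UCMSC-Exos 9, at 19.4 to 23.4 CPM in untreated HFD 1, 6 and 7, and at most 9.77 CPM in the rest of the untreated livers. Krt18 was highest in untreated HFD 3, 5, 4 and 2, in that order, and Krt8 in untreated HFD 5, 3 and 2 and UCMSC-Exos 9. The untreated livers thus differed among themselves by 4.1 to 7.27 times (highest over lowest) in these 6 genes and by 1.55 and 1.69 times in Krt8 and Krt18.

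Among 13896 named genes with a mean of at least 1 CPM, those whose log2 CPM ranked the 17 libraries most like the members' mean were Sox4, Cited4, Ccdc80, Sestd1, Gpr153, Kif12, Mfge8 and Scube3, with Spearman rho of 0.98 to 0.99. For single genes, Col4a5, a basement membrane collagen chain, Glis2 and Cldn7, a tight junction claudin, were nearest to both Epcam and Krt19 (rho 0.97 to 0.98). Col15a1, a collagen of portal fibroblasts, was nearest to Cftr (0.99), Pam to Krt7 (0.97) and the epithelial transcription factor Ehf to Cd24a (0.97). Tstd1 was nearest to Sox9 (0.89), Lig1, a DNA ligase, to Krt8 (0.97) and Icam1, a leukocyte adhesion molecule, to Krt18 (0.92). These values are descriptions over 17 libraries that share 2 groups and the contrast between UCMSC-Exos 9 and the rest.

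**Figure D3:**
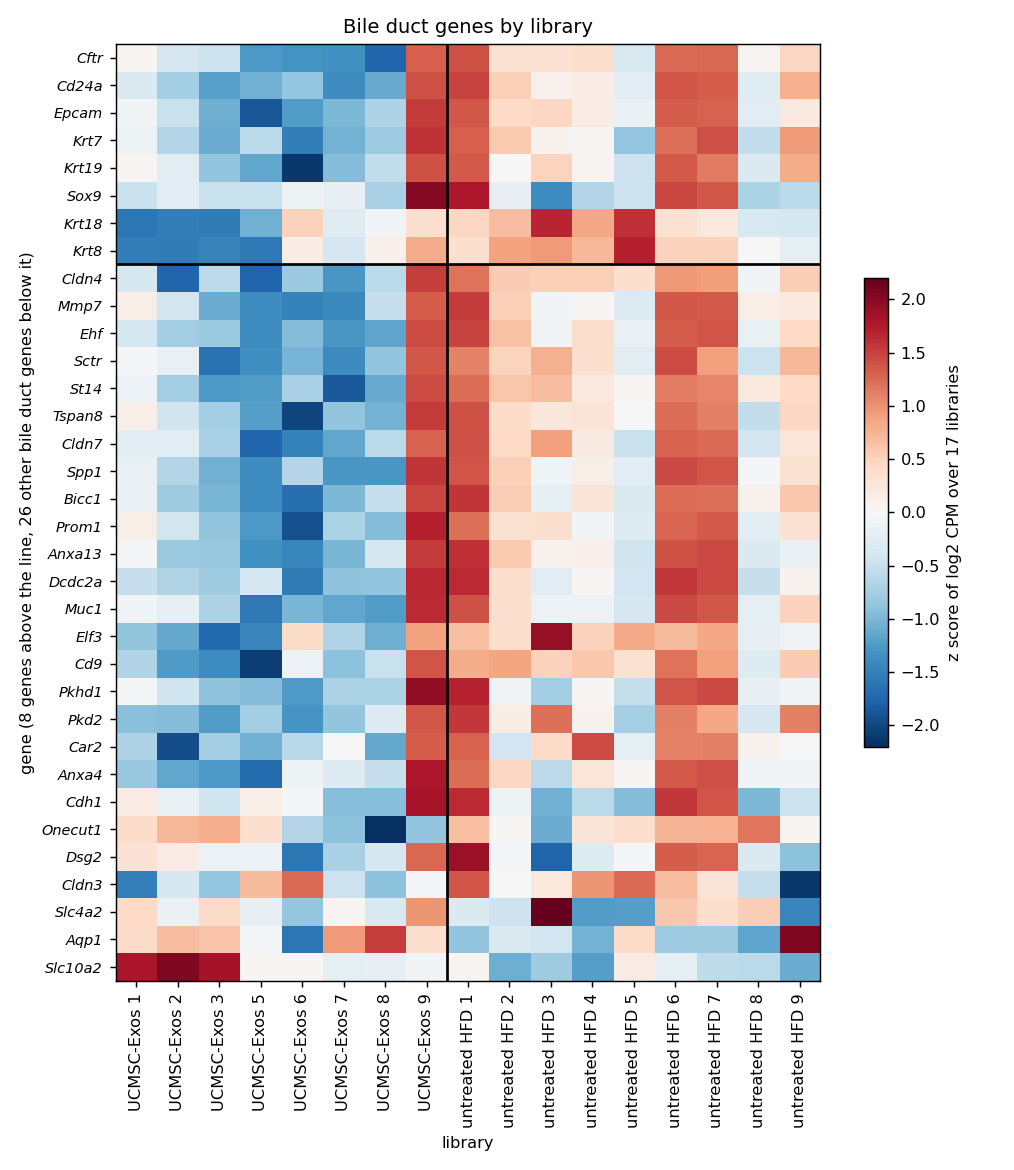
Z scores of log2 CPM over the 17 libraries for the 8 genes (above the line) and 26 other bile duct genes (below it), UCMSC-Exos libraries at left and untreated HFD libraries at right. UCMSC-Exos 9 and untreated HFD 1, 6 and 7 form the columns that are high for most genes, and Krt8 and Krt18 do not share that pattern.

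Of 28 other genes of bile duct epithelium, 4 fell and 1 rose over all libraries, where 10.4% of all genes tested were lower and 9.73% higher. The median log2 fold change of the 28 was −0.81. Elf3, an epithelial transcription factor, fell by 1.21 ± 0.38 (edgeR adjusted p = 0.0327) and Pkd2, the polycystin channel of the cilium, by 0.39 ± 0.13 (edgeR adjusted p = 0.0419). Cd9, a membrane tetraspanin, fell by 0.75 ± 0.26 (edgeR adjusted p = 0.0466). Slc10a2, an apical bile acid transporter, rose by 0.68 ± 0.18 (edgeR adjusted p = 0.015) and was at 46.9 CPM in UCMSC-Exos 9, against an untreated median of 39.1 CPM. Without UCMSC-Exos 9, 20 of the 28 fell, where 20.6% of all genes did, and Slc10a2 again rose. The median of the 28 was then −1.63. Slc4a2, an anion exchanger, and Aqp1, a water channel, did not pass then, at −0.01 and 0.16. The 4 lower calls became 0 without UCMSC-Exos 1, 2, 3, 5, 7 or 8 and with no filter on low counts, and 1 without untreated HFD 3 and 9 together, and fewer than 4 passed in 15 of the 17 fits that left out 1 library. With surrogate variables none of the 28 passed in edgeR's test, at a median of 0.01.

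Of 11 tested genes of the Notch pathway, which shapes bile ducts, 3 fell and none rose: Jag1, the ligand needed for duct formation, by 0.83 ± 0.24, Notch3 by 0.81 ± 0.25 and Hey1, a target gene, by 0.85 ± 0.28 (edgeR adjusted p = 0.0242, 0.0284 and 0.043). Of 13 genes of YAP, TEAD factors and their targets, 6 fell and none rose. The share of all genes tested that fell, for comparison with both lists, was 10.4%. Ccn2 and Ccn1, secreted matrix proteins, fell by 1.02 ± 0.25 and 0.93 ± 0.25, Ajuba by 0.93 ± 0.23 and the receptor kinase Axl by 0.60 ± 0.12. Axl also passed with surrogate variables, at −0.34 (edgeR adjusted p = 0.0296). Ccn2 was at 34.9 CPM in UCMSC-Exos 9, above the untreated median of 30.1 CPM, and the treated median was 12.3 CPM. Leaving out 1 library gave 0 (without UCMSC-Exos 2 or 3) to 5 (without UCMSC-Exos 9 or untreated HFD 8) Notch genes lower, and 4 (without UCMSC-Exos 2 or 3) to 10 (without UCMSC-Exos 9) YAP and TEAD genes lower. With surrogate variables 0 Notch genes passed, and Axl was the 1 YAP and TEAD gene that did.

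Of 18 ligands, receptors and integrins linked to ductular reaction, 2 fell and 3 rose, where 10.4% of all genes tested were lower and 9.73% higher. The integrin Itga6 fell by 0.96 ± 0.32 and the chemokine Cxcl5 by 1.66 ± 0.44. Lgr4 and Lgr5, receptors that amplify Wnt signals in hepatocytes, rose by 0.54 ± 0.12 and 0.37 ± 0.12 (edgeR adjusted p = 0.00605 and 0.0428). Without UCMSC-Exos 9, 13 were lower and 3 higher, where 20.6% of all genes were lower and 15% higher. Fewer than 3 were higher in 13 of the 17 fits that left out 1 library, and 1 rather than 2 was lower in 13 of them; with surrogate variables none passed in either direction. Of 11 primary cilium genes 2 fell, Pkd1 by 0.39 ± 0.13 and Tmem67 by 0.37 ± 0.11, and none rose. Leaving out 1 library gave 0 (without UCMSC-Exos 1, 3 or 7) to 4 (without UCMSC-Exos 9) cilium genes lower, and none passed with surrogate variables.

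Of 13 proteins of keratin aggregates and of the desmosomes that anchor keratin filaments, 2 fell and 2 rose. Among all genes tested 10.4% were lower and 9.73% higher. Tgm2, a crosslinking transglutaminase, fell by 0.65 ± 0.12 (edgeR adjusted p = 0.00106), at 196 ± 46.0 CPM in UCMSC-Exos livers (SD, n = 8) and 306 ± 30.7 CPM in untreated HFD livers (SD, n = 9). Its call was kept with surrogate variables, at −0.51 (edgeR adjusted p = 0.0238). Dsp, desmoplakin, fell by 0.46 ± 0.14 (edgeR adjusted p = 0.0265). Hspa1b, an inducible heat shock protein, rose by 1.61 ± 0.34 (edgeR adjusted p = 0.00448). The 2 lower calls became 1 without UCMSC-Exos 1, 2, 3 or 5, the 2 higher calls became 1 in 9 of the 17 fits that left out 1 library, and with surrogate variables 1 was lower and none higher.

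**Figure D4:**
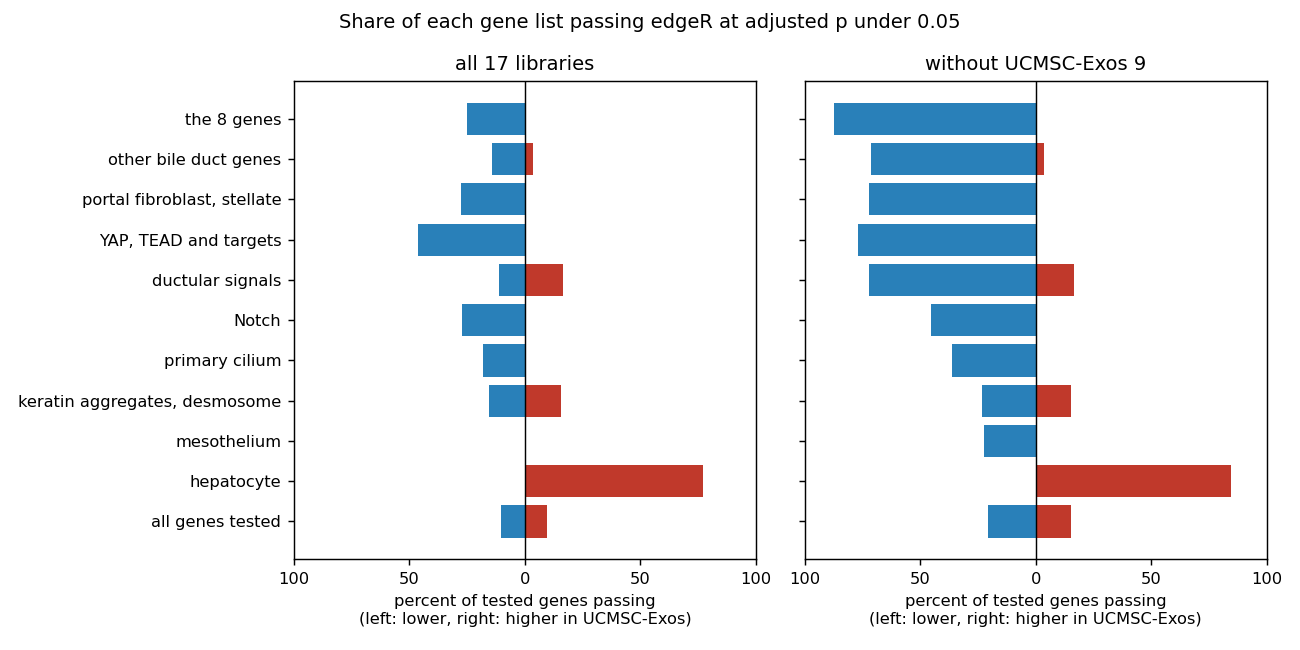
Percent of the tested genes of each list that passed at an adjusted p under 0.05, lower in UCMSC-Exos to the left of 0 and higher to the right, over all 17 libraries (left panel) and without UCMSC-Exos 9 (right panel). All genes tested give the background, 10.4% lower over all libraries and 20.6% lower without UCMSC-Exos 9.

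Other cells that a liver piece can hold moved beside these genes. Of 18 tested genes of portal fibroblasts and stellate cells, 5 fell and none rose, where 10.4% of all genes tested were lower and 9.73% higher. Leaving out 1 library gave 1 (without UCMSC-Exos 1, 2, 3, 5, 6 or 7) to 13 (without UCMSC-Exos 9) lower, no filter gave 0, and 3 were lower without untreated HFD 3 and 9. Col15a1 fell by 0.85 ± 0.24 (edgeR adjusted p = 0.0206). The summed level of the 19 genes listed ran from 563 to 2500 CPM in UCMSC-Exos livers, with UCMSC-Exos 9 highest, against 920 to 2550 CPM in untreated HFD livers and 920 to 1930 CPM in those other than untreated HFD 3 and 9. Of 13 hepatocyte genes 10 rose and none fell, and 3 rose with surrogate variables; Ahsg, a secreted plasma protein, rose by 0.91 ± 0.15 and Hnf4a by 0.67 ± 0.13. Their sum was lowest among treated libraries in UCMSC-Exos 9, at 66400 CPM, against 92300 to 114000 CPM in the other treated livers and 58600 to 105000 CPM in untreated HFD livers. The part of these cells in the levels of the 8 genes was not tested.

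Mesothelium of the liver capsule also makes all 4 keratins described. None of 9 tested mesothelial genes passed by edgeR or DESeq2 over all libraries. In edgeR 2 had an unadjusted p under 0.05, and 2 passed by limma voom. Without UCMSC-Exos 9, edgeR called 2 of the 9 lower, where 20.6% of all genes were. Gpm6a was 1 of them, at −1.23 ± 0.41 (edgeR adjusted p = 0.0255). The summed level of 10 such genes ran from 12.1 to 41.3 CPM in UCMSC-Exos livers and from 17.7 to 138 CPM in untreated HFD livers, or 21.5 to 37.5 CPM in those other than untreated HFD 3 and 9. The highest was untreated HFD 9, where Krt19 was at 7.36 CPM and Epcam at 7 CPM, below untreated HFD 1, 6 and 7 in both. Untreated HFD 3, the library with pancreas transcripts, had 5.54 CPM of Krt19 and 5.71 CPM of Sox9, the lowest Sox9 of all. Leaving out untreated HFD 3 and 9 together also gave 2 genes lower, where 9.74% of all genes were lower, with Krt8 at −0.42 and Krt18 at −0.42. Without those and UCMSC-Exos 9, 7 were lower, where 22.3% of all genes were. Transcripts of other tissues gave calls that rest in part on those libraries. In each of the fetal hepatoblast, pancreas, gut and gallbladder, adipose and skeletal muscle lists 1 gene was called lower. Without untreated HFD 3 and 9, 1 adipose gene was called lower and no gene of the other 4 lists, and DESeq2 made none in the fetal, pancreas and muscle lists. The muscle gene Mylpf had a median of 0.791 CPM in UCMSC-Exos livers and 0.749 CPM in untreated HFD livers, where it reached 417 CPM in 1 library. The pancreas gene Ctrl had a median of 0.574 CPM in UCMSC-Exos livers and 0.623 CPM in untreated HFD livers, with a highest value of 314 CPM. Over all libraries neither of 2 kidney and lung epithelial genes passed by edgeR, with 0 at an unadjusted p under 0.05, nor by DESeq2. By limma voom 1 passed. Without UCMSC-Exos 9 edgeR called Sftpd lower, at −2.02 ± 0.38 (edgeR adjusted p = 5.86e-04), and Sftpa1 did not pass, at 0.45. Sftpd was at 18.6 CPM in UCMSC-Exos 9, against a median of 1.72 CPM over all UCMSC-Exos livers. The summed level of the 9 genes listed was highest in UCMSC-Exos 9 (19.9 CPM) and untreated HFD 6, 1 and 7 (17.6, 16.1 and 14.1 CPM). Those are also the libraries highest in the 6 genes other than Krt8 and Krt18. Whether Sftpd came from lung tissue was not tested. Of 10 cell cycle genes 2 fell, Mcm2 and Mcm5, by 0.70 and 0.72, and none rose, where 10.4% of all genes tested were lower. Without UCMSC-Exos 9, 5 of the 10 were lower, where 20.6% of all genes were. By limma voom over all libraries 9 passed, and with surrogate variables none did.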

How the data were processed

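The tools named in the submitters' processing notes are fastp 1.3.3, Subread 2.0.2, featureCounts and HISAT2 2.2.1, with the build mm10. The deposited values are whole-number counts that featureCounts 2.1.1 made, per the file headers, over GENCODE vM25 exons in paired mode, which counts both mates, without strand and without multi-mapping reads; versions are given as found in each source. The exon length used for levels per kilobase is also per the file headers. Antisense models share at most 5.16% of a member's exon bases. Columns were matched by library names, and 1 per-sample column without a matching label was left out. Of 55401 IDs, 55141 matched a symbol.

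The main test was edgeR 4.0.16 under R 4.3.3 (filterByExpr with a minimum count of 10, TMM, robust quasi-likelihood F test, two-sided, Benjamini-Hochberg over 16238 genes, threshold 0.05). Log2 CPM used a prior count of 2. Totals of 32941467 to 36065074 reads limit the scarce genes, such as Cftr. Nothing in the labels says more of how the mice were kept, so p-values measure the spread between these libraries. No pair of libraries agreed within sampling noise (closest median chi-square ratio 3.85).

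Alternatives were RLE and upper quartile scaling, 2 other filters, the replicate number as a block, DESeq2 1.42.0, limma 3.58.1 voom with quality weights, at most 3 surrogate variables (sva 3.50.0), halved counts, and leaving out libraries. The steps were tested on simulated data. Named genes are the 8 members, in every other list the 4 called genes with the smallest p or, if none was called, 2, and the genes of nearest rank pattern. Cd9, Slc4a2, Aqp1, Krt23 and Krt10 were added after their values were seen. A few list genes are counted and not reported here by name. Members and lists were chosen with earlier results of these data known.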

Additional observations from a re-analysis of the deposited data

Results flagged for a closer look

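UCMSC-Exos 9 stood apart from the other 7 treated libraries in 6 of the 8 genes, by a gap to the next library that exceeded Dixon's 95% value of 0.526 for 8 samples. It was at 9.62 CPM for Krt7, 12.3 CPM for Krt19, 29.3 CPM for Epcam, 25.8 CPM for Sox9, 4.54 CPM for Cftr and 41.5 CPM for Cd24a. The gap over the range was between 0.729 for Krt19 and 0.87 for Cd24a. These levels were 3.02 times (Sox9) to 22 times (Cftr) the median of the other treated libraries. Of 16 gene and group pairs examined, none in the untreated group and neither Krt8 nor Krt18 stood apart. Chance gives such a gap in about 1 of 20 groups, and the 6 genes share the same library, so they are not separate observations.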

How the results depend on the processing

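The member count of 2 (both lower) became 7 by limma voom with quality weights, 0 with surrogate variables and 7 without untreated HFD 3 and 9 and UCMSC-Exos 9 together; leaving out 1 library gave 0 (without UCMSC-Exos 1, 2, 3 or 5, where edgeR gave an unadjusted p under 0.05 for 2 genes each) to 7 (without UCMSC-Exos 9). The count over all genes, 3274, was 7711, 891 and 6716 under the same 3 settings, and 2005 (without UCMSC-Exos 3) to 5823 (without UCMSC-Exos 9) with 1 library left out. Under the other scalings, filters, DESeq2 and halved counts the member count stayed at 2. With surrogate variables the sign turned for Krt7 (0.18), Krt19 (0.17), Epcam (0.0031), Sox9 (0.44), Pkd2 (0.03) and Gpm6a (0.05), none passing; Sox9 ran from −0.46 without UCMSC-Exos 9 to 0.01 without untreated HFD 1 with 1 library left out. The log2 fold change of Mylpf, a muscle gene, ran from −5.95 to 0.29 with 1 library left out, the highest without untreated HFD 9, and turned to 0.29 by DESeq2 and to 0.35 and 0.39 without untreated HFD 3 and 9 and without those and UCMSC-Exos 9. The cause of these turns was not tested. Same-numbered libraries did not pair (correlation of deviations over 0.1 in 2 of 8 numbers, each library best with its own number in 0). With the replicate number as a block 3029 genes and 2 members passed: Cd24a at −1.84 (adjusted p = 0.0284) and Cftr at −2.07 (0.0428), and not Krt8 (0.0769) or Krt18 (0.1). Over all named genes and alternatives, 1203 fold changes kept their side of the threshold and direction, 310 lost their call, 24 gained one and 11 turned. Low counts limit Cftr, with 3 to 193 reads per library.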
